A study of Mus musculus with 4 samples.

Results

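The genes described here are the 4 genes of the Fos family (Fos, Fosb, Fosl1 and Fosl2), the 3 genes of the Jun family (Jun, Junb and Jund), and Egr1, Ier2 and Zfp36, which are 10 of the 55335 genes in the deposited tables. They were chosen by symbol, with their values in these libraries already known, both the difference between lactate and control and the difference between the control libraries. Their values in these comparisons are therefore a description, and the calls and p-values printed for them are not independent evidence of a difference. AB2.2 is a mouse ESC line, kept here on a layer of embryonic fibroblast (MEF) feeders, and its RNA was sequenced in 2 control libraries and in 2 libraries from cells that had 50 mM lactate in the medium for 24 h. All 4 libraries came from cells in 15% serum, 1000 U/ml LIF, 3 μM CHIR99021, which inhibits the kinase GSK3, and 1 μM PD0325901, which inhibits the kinase MEK directly above ERK. The form of the lactate, the osmolarity and pH of the control medium, and the interval between the last daily change of medium and harvest are not given in the sources used here. It is also not stated whether the replicates were separate cultures, so the p-values measure only the spread between these libraries, which may be technical.

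Immediate early genes are transcribed within minutes of a signal such as fresh serum, growth factors or stress, without the need for newly made protein. Many of their mRNAs carry AU-rich elements in the 3′UTR and decay fast, and the protein of Zfp36 (tristetraprolin) binds such elements and recruits the machinery that removes the poly(A) tail. Fos proteins carry a leucine zipper and must pair with a Jun protein to bind the AP-1 site in DNA, while Jun proteins can also pair with each other. ERK signalling, acting through serum response factor (SRF) and its ternary complex partners, and cyclic AMP signalling, acting through CREB, are the textbook routes to Fos transcription.

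The sum of reads over all genes was 18067562 for control replicate 1, 19077885 for control replicate 2, 18542554 for lactate replicate 1 and 18948861 for lactate replicate 2. All 10 genes passed the filter on low counts, which left 18661 genes. Levels of a gene are compared between libraries as CPM, reads scaled to a common library size after TMM, and levels of different genes are compared as TPM, which also divides by transcript length. A step that removed the feeders before extraction is not given in the sources used here, and in bulk samples fewer cells of a type and less RNA per cell cannot be told apart.

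Fos lies at chr12:85473890-85477273 on the plus strand and Fosb at chr7:19302696-19310051 on the minus strand (GRCm38). Jun lies at chr4:95049034-95052222, minus strand. Fos and Fosb each have 4 exons in their longest coding transcript, and Jun has 1. The 250 bases before the RefSeq start of Fos, Fosb and Jun (GRCm38.p6) are shown because Fos and Fosb were both far lower in the lactate libraries and Jun was not. Capitals mark TATAA, the core of a TATA box, TGACG, the core of the cyclic AMP response element, and TGACATCA, the AP-1-like site known from the Jun promoter, on either strand. The window of Fos is chr12:85473640-85473889, that of Fosb chr7:19310046-19310295 and that of Jun chr4:95052223-95052472, each written 5′ to 3′ along the gene.
Fos: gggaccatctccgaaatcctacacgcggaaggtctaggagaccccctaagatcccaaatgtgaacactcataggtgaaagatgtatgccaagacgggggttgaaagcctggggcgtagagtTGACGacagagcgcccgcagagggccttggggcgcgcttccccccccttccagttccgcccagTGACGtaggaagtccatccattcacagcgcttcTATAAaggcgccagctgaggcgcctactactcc
Fosb: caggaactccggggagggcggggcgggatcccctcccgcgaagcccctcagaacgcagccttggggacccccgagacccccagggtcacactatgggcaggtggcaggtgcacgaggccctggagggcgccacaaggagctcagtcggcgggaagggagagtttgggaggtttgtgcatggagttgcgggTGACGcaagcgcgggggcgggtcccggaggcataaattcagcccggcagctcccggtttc
Jun: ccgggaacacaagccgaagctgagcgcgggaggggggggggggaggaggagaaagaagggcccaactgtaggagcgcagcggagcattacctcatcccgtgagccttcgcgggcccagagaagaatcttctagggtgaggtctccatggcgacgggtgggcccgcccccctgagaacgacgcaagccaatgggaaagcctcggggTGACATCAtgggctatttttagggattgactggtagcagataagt

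The searched RefSeq windows ran from 250 bases before to 50 bases after each start, and 7 of the 10 genes had one (Fosl1, Egr1 and Ier2 did not match). The RefSeq start lay 1210, 1025 and 671 bases from the GENCODE gene start for Jund, Zfp36 and Fosl2, and at most 30 bases from it for the other 4. TGACG was present in 20.8% of the 32851 windows of this length, on either strand, and among the members in Fos, Fosb and Junb. Fos held it at 2 places, from −129 to −125 and from −66 to −62 relative to the start, and Fosb held it from −60 to −56. TATAA was present in 24.9% of all windows and in those of Fos (from −33 to −29) and Junb. TGACATCA, found in 3.62% of windows, was present in that of Jun, from −45 to −38. TGANTCA, the general AP-1 site, was found in 7.81% of windows and in no member, and the CArG box bound by SRF in 1.63% of windows and in that of Zfp36. GGGCGG, the GC box, was present in 35.7% of windows and in those of Jun, Fosl2, Fosb, Zfp36 and Fos, and CCAAT in 37.4% and in those of Jun and Junb. The serum response element for which Fos is known lies further upstream than this window. These matches describe the letters only, and no binding was measured in the libraries.

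In the 3′UTR, the richest AU site of Fos and the one AU pentamer of Fosb are shown because both genes carry the largest differences of the set. Capitals mark ATTTA, the core of an AU-rich element. The site of Fos is chr12:85477100-85477129 on the plus strand and that of Fosb chr7:19303326-19303355 on the minus strand.
Fos: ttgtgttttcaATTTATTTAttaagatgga
Fosb: cccacccccagctATTTAtccctttcctgg

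The Fos site holds 2 overlapping copies of ATTTA. The whole 3′UTR of Fos has 4 copies over 815 bases, or 4.91 per kb, and that of Fosb has 1 over 2145 bases, or 0.466 per kb. The median over 20619 protein-coding genes was 1.12 per kb, and 61.6% of these genes had at least 1 copy. Junb, Zfp36 and Jun had 4.12, 3.88 and 3.24 copies per kb, Jund, Fosl2, Egr1 and Fosl1 between 1.57 and 1.88, and Ier2 none. Jun, Junb, Jund and Ier2 have 1 exon in the transcript with the longest coding sequence, as do 7.13% of protein-coding genes.

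Fos, the founding member of its family, was lower with lactate and differed between the controls. Control replicates 1 and 2 held 224 and 669 reads of it, and lactate replicates 1 and 2 held 48 and 61, which were 13.0, 35.3, 2.58 and 3.09 CPM. Both lactate libraries lay below both control libraries, and control replicate 2 stood far above the others. The log2 fold change was −3.08 with a standard error of 0.50 (edgeR). Against the summed lactate libraries, control replicate 1 alone was 4.55-fold higher (95% exact binomial interval 3.61 to 5.78) and control replicate 2 alone 12.4-fold higher (10.1 to 15.3). These intervals, and all others of a ratio of reads, cover counting error only. Each control library was thus above the lactate libraries, by an amount that depended on which control was used.

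Fosb, the closest relative of Fos and also an early gene, had the largest difference of the set. The control libraries held 78 and 248 of its reads and the lactate libraries 3 each, or 4.51, 13.1, 0.161 and 0.152 CPM. The lactate values rest on 6 reads in all, so the size of the difference is known only within wide bounds. The summed controls were 57.4-fold above the summed lactate libraries (exact binomial interval 26.1 to 158). Control replicate 1 alone gave 28.8-fold (12.7 to 80.9) and control replicate 2 alone 83.5-fold (37.8 to 230). The fitted log2 fold change was −5.76 with a standard error of 0.75.

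Fosl1 and Fosl2, which encode Fra-1 and Fra-2 and lack the transactivation domain of Fos, did not follow Fos and Fosb. Fosl2 had 7.98 and 12.4 CPM in the control libraries and 9.84 and 9.83 with lactate, with both lactate values between the controls, and its log2 fold change was −0.05 (standard error 0.25). Fosl1 was low, with 18, 25, 41 and 21 reads in control replicates 1 and 2 and lactate replicates 1 and 2. Its CPM were 1.04, 1.32, 2.21 and 1.06, the groups overlapped, and the log2 fold change was 0.46 (standard error 0.42).

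In the Jun family the differences were small. Jun had 10.8 and 17.1 CPM in the control libraries and 18.3 and 18.1 with lactate, from between 187 and 357 reads. Both lactate libraries lay above both controls, but control replicate 1 was the library apart, and the log2 fold change of 0.38 (standard error 0.24) became 0.08 without control replicate 1 and 0.75 without control replicate 2. Junb had 22.7 and 25.7 CPM in the control libraries and 17.2 and 19.0 with lactate. The groups did not overlap, and the log2 fold change was −0.42 (standard error 0.16). Jund had 41.2, 44.9, 41.7 and 46.2 CPM in control replicates 1 and 2 and lactate replicates 1 and 2, which overlapped, with a log2 fold change of 0.03 (standard error 0.14).

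Egr1, a zinc finger transcription factor and a standard reporter of ERK activity, was near the lower limit of these libraries. Its reads were 9 and 31 in control and 16 and 12 with lactate, or 0.520, 1.63, 0.861 and 0.608 CPM. Both lactate values lay between the controls, and the log2 fold change of −0.57 (standard error 0.56) was 0.48 without control replicate 2 and −1.17 without control replicate 1. Ier2, a nuclear protein of the early response, stood at 79.5 and 81.0 CPM in control and at 94.3 and 88.3 with lactate. It was higher in both lactate libraries, by 0.19 on the log2 scale (standard error 0.13). Zfp36 stood at 14.3 and 9.22 CPM in control and at 7.64 and 6.18 with lactate. Both lactate libraries were lower, and the log2 fold change of −0.76 (standard error 0.26) was −0.43 without control replicate 1 and −1.05 without control replicate 2.

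**Figure D1:**
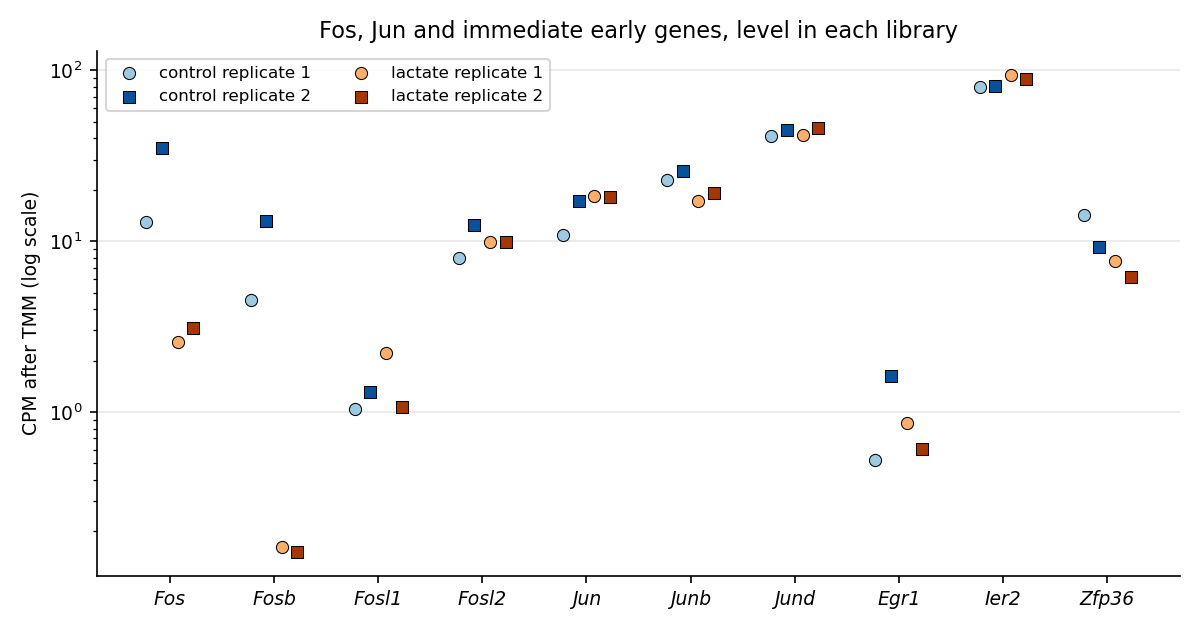
CPM after TMM scaling (log axis) of each of the 10 genes in each library, with circles for replicate 1 and squares for replicate 2, blue for control and orange for lactate. Fos and Fosb in lactate sit below both controls, at 2.58 and 3.09 and at 0.161 and 0.152 CPM, while Fosl2 and Egr1 in lactate lie between the controls.

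The 10 genes did not all differ in 1 direction. Both lactate libraries lay below both controls in 4 genes (Fos, Fosb, Junb and Zfp36), a pattern seen in 25.9% of all genes tested, and above both controls in 2 genes (Jun and Ier2), a pattern seen in 27% of all genes. The other 4 overlapped, and TPM gave the same counts. With a call defined as an adjusted p-value under 0.05 together with more than a 2-fold change, edgeR called 1 of the 10 genes, Fosb, as downregulated, where 0.348% of all genes were called, and called none as upregulated, where 0.552% were. At an unadjusted p-value under 0.05 there were 4 of the 10 (Fos, Fosb, Junb and Zfp36), against 23.1% of all genes. Fos changed by more than 2-fold without passing the adjusted threshold (edgeR adjusted p = 0.0520). Both Fos and Fosb were called by DESeq2, edgeR without the filter on low counts (adjusted p = 2.64e-06 for Fos) and edgeR with the replicate number as a block (2.26e-10 for Fos). Neither was called by limma on the TPM (adjusted p = 0.241 for Fos on log2(TPM + 1)) or by edgeR on expected counts (0.0649 for Fos). With any 1 library left out, the log2 fold change lay between −3.65 and −2.19 for Fos and between −6.34 and −4.79 for Fosb. The median log2 fold change was −0.23 over the 10 genes and 0.01 over all genes tested. Because these genes were chosen on this contrast, nothing is read from their counts against the background.

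**Figure D2:**
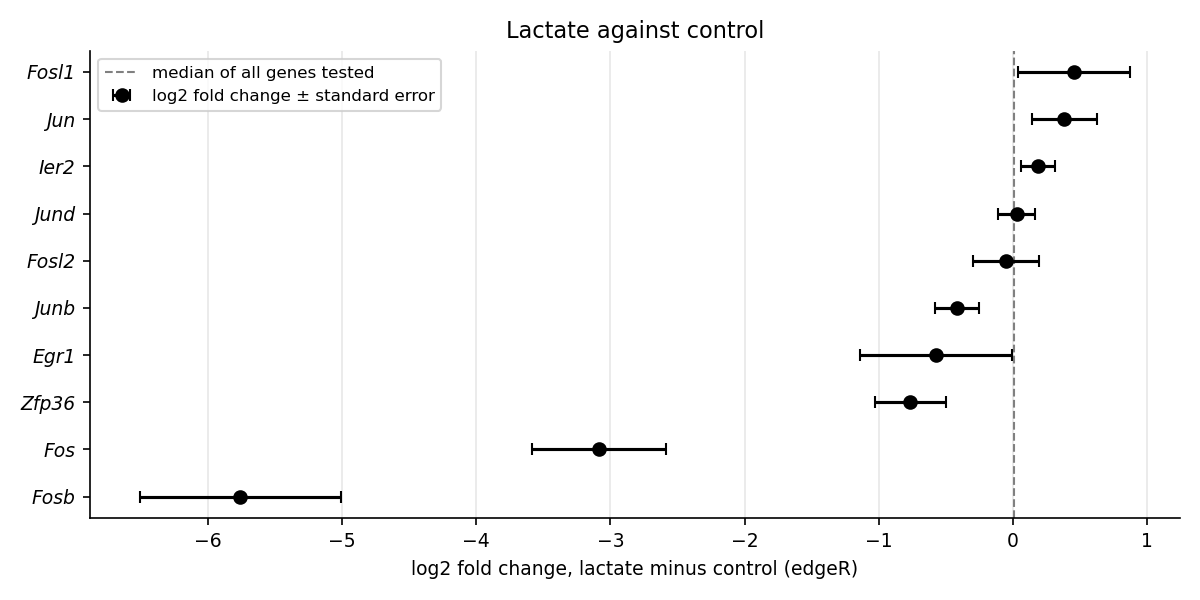
Log2 fold change of the 10 genes, lactate minus control, with bars of 1 standard error from edgeR over 2 control and 2 lactate libraries. The dashed line is the median of all genes tested, at 0.01. Fos and Fosb, at −3.08 and −5.76, lie apart from the other 8 genes, which lie between −0.76 and 0.46.

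The control libraries differed from each other in these genes. Control replicate 2 was above control replicate 1 in 9 of the 10 genes, where it was above in 51.7% of all genes. Egr1 was 3.14-fold higher in control replicate 2 (95% exact binomial interval 1.46 to 7.50), Fosb 2.90-fold (2.24 to 3.79) and Fos 2.72-fold (2.34 to 3.18). Jun and Fosl2 followed at 1.58-fold (1.32 to 1.90) and 1.55-fold (1.25 to 1.93). These 5 genes passed a 1.5-fold difference, as 7.81% of all genes did, and 3 passed a 2-fold difference, as 1.98% of all genes did. Fosl1, Junb, Jund and Ier2 stood at 1.27-fold, 1.13-fold, 1.09-fold and 1.02-fold, with intervals that include 1. Zfp36 went the other way, at 0.646 of control replicate 1 (0.529 to 0.787), and 6.77% of all genes fell by more than 1.5-fold in that direction. A ratio of 1 library to 1 has no replicate check, and the rule for choosing the genes had used this difference.

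Between the lactate libraries, Fosl1, Jund and Ier2 had ratios further from 1 than between the controls, and the other 7 genes had ratios nearer to 1. Fosl1 was the 1 gene past a 1.5-fold or 2-fold difference, at 0.483 of lactate replicate 1 (exact binomial interval 0.271 to 0.836), where 15.1% and 4.18% of all genes passed these limits in either direction. Fos was at 1.20-fold (0.807 to 1.79), Fosl2 at 0.999-fold (0.812 to 1.23) and Jun at 0.986-fold (0.848 to 1.15). For Fosb, with 3 reads in each lactate library, the interval ran from 0.126 to 7.04.

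**Figure D3:**
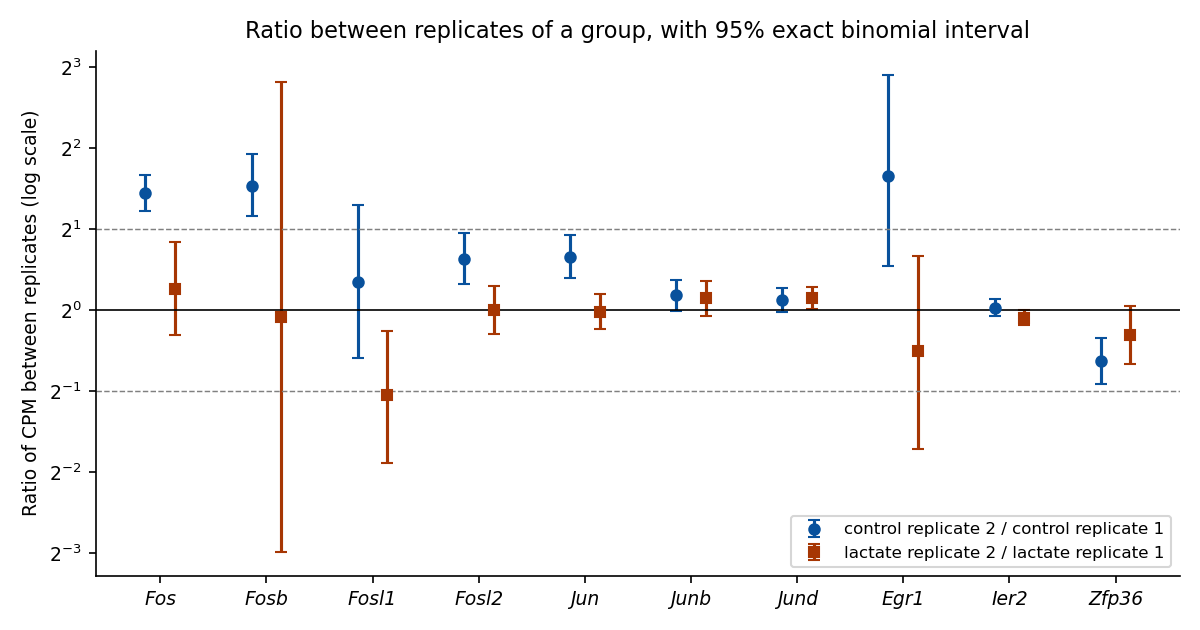
Ratio of CPM between the replicates of a group (log axis), replicate 2 over replicate 1, for control in blue circles and lactate in orange squares. Bars are 95% exact binomial intervals for counting error, and dashed lines mark a 2-fold difference. Fos, Fosb and Egr1 lie above the upper line in control, and Fosl1 lies just below the lower line in lactate.

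The share of reads on mitochondrial genes also separated the libraries, at 5.48% and 5.72% in the libraries numbered 1 of control and lactate and 2.43% and 2.82% in those numbered 2. Comparing libraries of like mitochondrial share, Fos was 5.02-fold higher in control replicate 1 than in lactate replicate 1 (exact binomial interval 3.66 to 7.003) and 11.4-fold higher in control replicate 2 than in lactate replicate 2 (8.76 to 15.1). Fosb was 27.9-fold (9.22 to 138) and 86.0-fold (29.1 to 420) higher in the same comparisons. Junb was 1.32-fold and 1.35-fold higher in control, and Zfp36 1.87-fold and 1.49-fold. Fosl1, Fosl2 and Egr1 changed direction between the comparisons. For Egr1 the ratio was 0.605 (0.236 to 1.45) at the higher and 2.69 (1.34 to 5.74) at the lower mitochondrial share.

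In TPM, which allows genes to be compared with each other, the order in control cells ran from Ier2 at 89.5 ± 3.71 and Jund at 60.8 ± 4.14 (mean ± SD, n = 2) to Egr1 at 0.520 ± 0.396. Junb (22.8 ± 2.05) and Fos (18.0 ± 11.3) came next and had overlapping ranges. Jun (7.49 ± 2.39) and Zfp36 (6.98 ± 1.91) overlapped, as did Fosb (3.00 ± 2.20) and Fosl2 (2.40 ± 0.905), and Fosl1 (0.895 ± 0.318) and Egr1. With lactate, Ier2 (105 ± 14.1) and Jund (66.3 ± 6.47) kept the first places. Fos was at 2.31 ± 0.148 TPM, where its range overlapped that of Fosl2 (2.28 ± 0.0778), and Fosb came last at 0.0900 ± 0.0141.

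The family sums show the difference between Fos and Jun genes. The summed TPM of the 4 Fos family genes was 13.9 and 34.8 in the control libraries and 6.57 and 5.43 with lactate, so the groups did not overlap. Fos itself made up 72.2% and 74.9% of that sum in control and 33.5% and 44.4% with lactate. The 3 Jun family genes summed to 85.0 and 97.2 TPM in control and 89.2 and 100 with lactate, which overlapped. The ratio of Jun family to Fos family TPM was 6.11 and 2.80 in the control libraries and 13.6 and 18.4 with lactate. Jun family mRNA, mostly Jund, was thus in excess in every library.

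**Figure D4:**
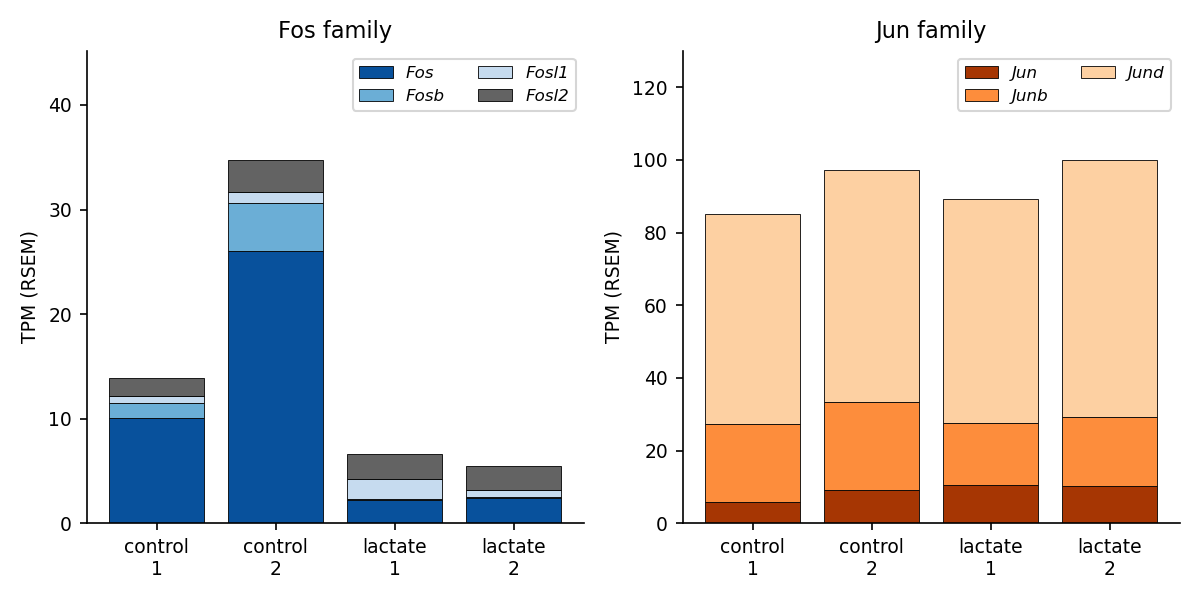
Summed TPM from RSEM for the Fos family (left) and the Jun family (right) in each library, with a colour for each gene and axes that start at 0. The Fos family sums to 13.9 and 34.8 TPM in control and 6.57 and 5.43 with lactate, with Fos the largest share in control, and the Jun family lies between 85.0 and 100.

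The transcript assignment of Fos rests on 48 and 61 reads in the lactate libraries, against 224 and 669 in control. Whether transcript use differed between the groups was not tested. Fos has 1 coding transcript, of 2108 bases, and 3 shorter non-coding ones of 631, 795 and 834 bases that each include intron bases of the coding transcript (24, 244 and 105). The mean transcript length that RSEM assigned to Fos was 1865 and 1915 bases in the control libraries and 2108 in both lactate libraries, the length of the coding transcript alone. The RSEM expected count was 78.6% and 75.8% of the raw count of Fos in control and 93.8% and 86.9% with lactate, against medians between 83.2% and 84.4% over genes with at least 40 reads. In the expected counts the log2 fold change of Fos was −2.86 and that of Fosb −5.59.

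Several members share bases with a gene on the opposite strand, and whether the counting used strand is not stated, so reads of such pairs cannot be told apart. Zfp36 overlaps Gm44710 over 125 exon bases, and Gm44710 had 211 and 149 reads in control and 126 and 80 with lactate, against 247 and 175, and 142 and 122, for Zfp36. Jund shares 877 exon bases with Gm11175 (between 604 and 806 reads), and its expected counts were between 123% and 129% of its raw counts. The longest overlap was that of Fosl1 with Ccdc85b, over 1163 exon bases, where Ccdc85b had 104 and 166 reads in control against 18 and 25 for Fosl1. Junb shares 173 exon bases with Prdx2 (1511 to 2248 reads, against 320 to 487 for Junb), and Jun shares 232 with Junos (22 to 52 reads). Fos, Fosb, Fosl2, Egr1 and Ier2 overlap no annotated gene.

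Over the 4 libraries, the genes most like Fos were sought by the Euclidean distance between log2 CPM centred on each gene's mean, among 13445 other protein-coding genes with a mean of at least 1 CPM. The nearest was Cbr3, a carbonyl reductase, at a distance of 1.15, with 9.60 and 12.9 CPM in control and 1.94 and 3.45 with lactate. Gvin1, Isg15, Usp18, Wnt3a, Irgm1, 2210011C24Rik, Ccdc92b and Lhfpl4 followed, at distances up to 1.49. Isg15, a ubiquitin-like modifier, had 2.43 and 4.32 CPM in control, which are 1.78-fold apart, and 0.861 and 1.06 with lactate. Fosb stood at a distance of 2.02, with 100 of the candidates nearer to Fos. With 4 libraries, such a distance mostly reflects lower values with lactate, and it is given as a description.

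The 9 gene lists that follow were chosen with earlier results of these data known. Nothing is therefore read from their counts against the background. Other immediate early genes formed a list of 38. Of 33 tested, 17 were higher and 16 lower, with a median log2 fold change of 0.09, where 49% of all genes were lower. At an unadjusted p-value under 0.05 in edgeR there were 16 of the 33, 8 higher and 8 lower, against 23.1% of all genes. The 1 called gene, where 0.552% of all genes were called as upregulated, was Atf3, which encodes a stress-induced partner of Jun proteins. It rose from 1.97 and 2.90 to 10.4 and 17.1 CPM, a log2 fold change of 2.49 (standard error 0.33, edgeR adjusted p = 0.0434). The next largest differences were in Npas4, an activity-induced transcription factor, and Sgk1, a serum- and glucocorticoid-induced kinase. Npas4 had 12 and 19 reads in control and 4 in each lactate library (log2 fold change −1.99, standard error 0.45, edgeR adjusted p = 0.0772). It was called with the replicate block (edgeR adjusted p = 0.00255) and without the filter (edgeR adjusted p = 0.0229). Sgk1 had 254 and 231 against 426 and 439 CPM (0.84, standard error 0.14). Egr2, Egr3, Egr4, Nr4a3 and Dusp2 had too few reads to be tested. Between the controls, 2 of the 33 were more than 1.5-fold higher in control replicate 2 and none more than 2-fold, against 7.81% and 1.98% of all genes.

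Proteins that can pair with Fos or Jun through the leucine zipper formed a list of 16, of which 11 were tested. Of these, 4 were higher and 7 lower, and Atf3, also a member of this list, was the 1 called, where 0.552% of all genes were called as upregulated. At an unadjusted p-value under 0.05 in edgeR there were 4 of the 11, 3 higher and 1 lower, against 23.1% of all genes. Their median of −0.29 lay between −0.19 and −0.02 with any 1 library left out, and was 0.21 under DESeq2 and 0.19 without the filter on low counts. Atf4, the main transcription factor of the integrated stress response, stood at 97.0 and 121 CPM in control and at 180 and 256 with lactate, but the log2 fold change of 1.00 was not called (standard error 0.21, edgeR adjusted p = 0.0688). With any 1 library left out, the log2 fold change of Atf4 lay between 0.72 and 1.21. Jdp2, a repressor that pairs with Jun, had 13.5 and 9.01 CPM in control and 21.9 and 21.5 with lactate, a log2 fold change of 0.95 (standard error 0.22).

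The list of SRF, its ternary complex partners and other cofactors, and CREB with its relatives and coactivators held 14 genes. Of these, 13 were tested, with 6 log2 fold changes above 0, 7 below and a median of −0.10. In edgeR, 2 (both below 0) had an unadjusted p-value under 0.05, against 23.1% of all genes. None was called by edgeR, DESeq2 or limma. Over all genes, edgeR called 0.552% as upregulated and 0.348% as downregulated, DESeq2 called 358 of 32923, and limma at most 2. A count of 0 in lists of this size, here and below, is therefore not read as a result. The largest differences were in Crtc2, a CREB coactivator (48.4 and 34.9 against 30.5 and 26.4 CPM, log2 fold change −0.55), Elk3, a ternary complex factor (0.36), and Fhl2, a LIM-domain cofactor (0.35). Fhl2 was −0.10 without control replicate 1 and −0.30 without lactate replicate 2.

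In the MAP kinase cascade, 27 of 28 genes were tested, with 16 higher, 11 lower and a median of 0.06. None was called by edgeR, DESeq2 or limma. In edgeR, 5 had an unadjusted p-value under 0.05, 1 higher and 4 lower (23.1% over all genes). Mapkapk3, a kinase below p38, had 48.5 and 48.0 CPM in control and 23.2 and 26.6 with lactate, a log2 fold change of −0.95 (standard error 0.14), which is under 2-fold although its edgeR adjusted p was 0.0494. Rps6ka4 (MSK2), a kinase that phosphorylates CREB, and Hras had −0.93 and −0.84. With any 1 library left out, Mapkapk3 lay between −1.06 and −0.89, Rps6ka4 between −1.31 and −0.53, and Hras between −1.29 and −0.52.

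Genes that report and dampen ERK output, a list of 14, held 2 called genes. Of the 14, 10 were higher and 4 lower, with a median of 0.18, where 49% of all genes were lower and 0.552% were called as upregulated. At an unadjusted p-value under 0.05 in edgeR there were 6 of the 14, all higher, against 23.1% of all genes. Spry2, a Sprouty inhibitor of receptor signalling to ERK, rose from 33.0 and 41.5 to 91.8 and 110 CPM (log2 fold change 1.44, standard error 0.17, edgeR adjusted p = 0.0406). Spry4, of the same family, rose from 7.23 and 8.85 to 22.06 and 22.05 CPM (1.45, standard error 0.18, edgeR adjusted p = 0.0406). Dusp6, the phosphatase of ERK, had 5.55 and 6.69 CPM in control and 12.7 and 13.4 with lactate, and its log2 fold change of 1.09 (standard error 0.19) did not pass at an edgeR adjusted p of 0.0553. Without control replicate 1 neither Sprouty gene was called (edgeR adjusted p = 0.0652 for Spry2 and 0.0886 for Spry4). Dusp6 was called under DESeq2 (adjusted p = 0.0114) and by edgeR without the filter on low counts (adjusted p = 0.00588). It was also called by edgeR with the replicate number as a block (adjusted p = 1.79e-06). With any 1 library left out, its log2 fold change lay between 0.95 and 1.23.

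Textbook AP-1 target genes formed a list of 15. Of these, 14 were tested, with 5 higher, 9 lower and a median of −0.08, where 49% of all genes were lower. With 14 genes, this split is not read as a result. None was called by edgeR, DESeq2 or limma. In edgeR, 3 had an unadjusted p-value under 0.05, 1 higher and 2 lower (23.1% over all genes). Mmp3, a matrix metalloproteinase with at most 12 reads in any library, had a log2 fold change of 1.16 (standard error 0.45). Vim, the filament protein vimentin, which feeders also express, had 250 and 340 CPM in control and 149 and 200 with lactate (−0.75, standard error 0.21). Ccnd1, the G1 cyclin D1, had 98.6 and 107 against 60.1 and 62.6 CPM (−0.74, standard error 0.13).

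Of 15 cytoskeletal targets of SRF, all tested, 4 were higher and 11 lower, with a median of −0.20. None was called by edgeR, DESeq2 or limma. In edgeR, 7 had an unadjusted p-value under 0.05, 1 higher and 6 lower (23.1% over all genes). The largest differences were in Cnn2 (calponin 2), Actn1 (an actinin that cross-links actin) and Actb (β-actin), at −0.73, −0.67 and −0.64. Acta2 and Tagln of this list are also feeder markers. Among 19 tested factors of AU-rich element decay, of 20 listed, 7 were higher and 12 lower, with a median of −0.09. None was called by edgeR, DESeq2 or limma, and 1, which was higher, had an unadjusted p-value under 0.05 in edgeR (23.1% over all genes). The largest differences were in Hnrnpd (AUF1, which binds AU-rich elements), Xrn1 (the 5′ to 3′ exonuclease) and Hnrnpab, at −0.46, 0.42 and −0.40.

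Heat shock genes, a list of 13 chaperones, cochaperones and their regulator Hsf1, had log2 fold changes below 0 in all 13, where 49% of all genes were lower. The values lay between −1.63 and −0.03, with a median of −0.67. In edgeR, 9 of the 13 had an unadjusted p-value under 0.05, all lower, against 23.1% of all genes. Of the 13, 2 were called. Both lactate libraries lay below both controls in 10, where 25.9% of all genes showed that pattern, and the groups overlapped in 3. Hspa8, the constitutive HSC70 chaperone, fell from 3384 and 3638 to 1197 and 1069 CPM (log2 fold change −1.63, standard error 0.16, edgeR adjusted p = 0.0320). Hsph1, an HSP110 chaperone, fell from 215 and 211 to 104 and 102 CPM (−1.04, standard error 0.13, edgeR adjusted p = 0.0406), and was not called without control replicate 1 (edgeR adjusted p = 0.0825). Hspa1a, the inducible HSP70, had between 11 and 26 reads per library and −0.87 (standard error 0.33). The 2 called genes compare with 0.348% of all genes called as downregulated.

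**Figure D5:**
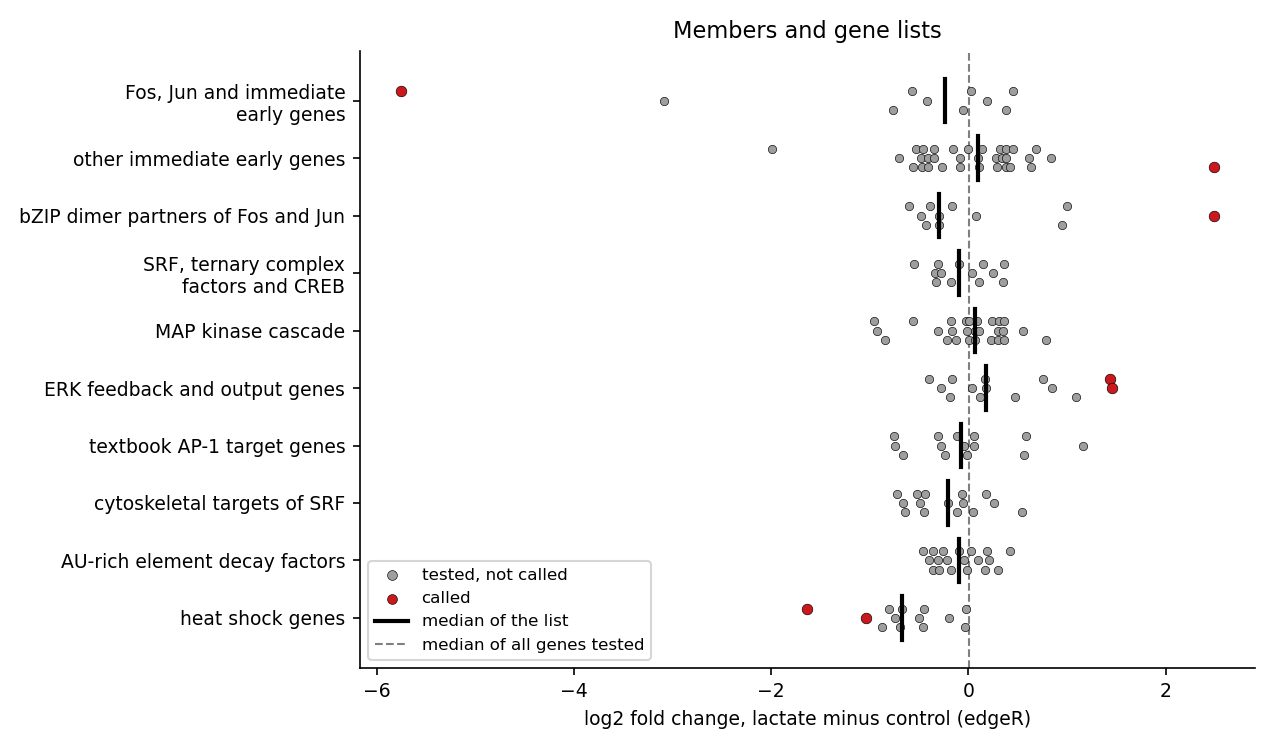
Log2 fold change (lactate minus control, edgeR) of each tested gene in the 10 Fos, Jun and immediate early genes and in 9 lists, with called genes in red, the median of each list as a black bar and the median of all genes tested as a dashed line. Atf3, in 2 lists, and Spry2 and Spry4 are called to the right, and Fosb, Hspa8 and Hsph1 to the left.

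Markers of both the stem cells and the feeders were detected. All 14 pluripotent stem cell markers were tested and none was called by edgeR, DESeq2 or limma, with 6 at an unadjusted p-value under 0.05 in edgeR, where 23.1% of all genes were. Their summed TPM was 6120 and 8536 in control and 6974 and 10679 with lactate, with Dppa5a the most abundant, and without Dppa5a it was 3581 and 3853 in control and 4074 and 4083 with lactate. Of 24 feeder fibroblast markers none was at 0, 23 were tested, 10 were higher and 13 lower, and none was called by edgeR, DESeq2 or limma, with 4 at an unadjusted p-value under 0.05 in edgeR, where again 23.1% of all genes were. Their summed TPM was 1123 and 1326 in control and 1512 and 1409 with lactate, with Fn1 the most abundant, and without Fn1 it was 536, 732, 626 and 690. Of the 23 tested feeder markers, 19 were higher in control replicate 2 than in control replicate 1, against 51.7% of all genes, and 7 of them by more than 1.5-fold, against 7.81% of all genes. Fos, Fosb and Egr1 were higher in the same library. The part of the feeders in the values of the Fos and Jun genes was not tested.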

How the data were processed

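RNA-seq libraries were analysed from 2 control and 2 lactate samples, grouped by the treatment in the labels. Per the methods and labels, the authors trimmed reads with cutadapt 1.16, mapped them to mm10 with STAR and deposited raw read counts for 55335 genes and 1153 families of transposable elements, which were not used. The authors made the deposited expected counts, TPM values and FPKM values of each library with RSEM. FPKM was not used here.

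The members and gene lists were chosen with earlier results of these data known. Raw counts were fitted in R 4.3.3 with edgeR 4.0.16 (filterByExpr by group, TMM, legacy quasi-likelihood test, no replicate term), with Benjamini-Hochberg adjustment over 18661 genes. Calls needed an adjusted p-value under 0.05 together with more than a 2-fold change. The standard error is the log2 fold change over the square root of F. TMM factors were 0.959 and 0.996 in control and 1.00 and 1.04 in lactate libraries. On simulated counts edgeR recovered 198 of 200 changed genes with 3 false calls. The simulation gave every gene the same dispersion, no effect shared by replicate number, and changes well past 2-fold. It checks the code and does not measure recovery or false calls in these libraries. Replicates were further apart than counting noise (a chi-square statistic of 32.2 per degree of freedom between control and 31.4 between lactate libraries). Each was kept, but this spread cannot show whether they were separate cultures. The smallest two-sided permutation p for 2 against 2 libraries is 0.333, so none is given.

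Genes named were the members, in each list every called gene and the 3 tested genes with the largest absolute log2 fold change, the 10 genes nearest to Fos (1 of them is not reported here), and the most abundant marker of each marker list. Untested list members and genes that overlap a member are also named. Alternatives were DESeq2 1.42.0, limma 3.58.1 on log2(TPM + 1) and log2(TPM + 0.1) over genes with a mean TPM above 0.1, RLE factors, library totals alone, no filter, a replicate block, a minimum of 10 counts in each library, rounded expected counts, the adjusted p-value alone, and each library left out. Positions are from GENCODE M21 (GRCm38) and promoters from RefSeq (GRCm38.p6). The main fit did not treat the labels' replicate numbers as pairs. Same-numbered libraries were compared in the replicate block, at like mitochondrial share and in the correlation of their deviations.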

Additional observations from a re-analysis of the deposited data

How the results depend on the processing

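Fos was lower with lactate under all 13 alternatives (log2 fold change from −3.65 to −2.19) and Fosb under all 12 that fitted it (from −6.34 to −1.76, the smallest where 1 was added to the TPM). Junb and Zfp36 were lower and Jun and Ier2 higher in all 13. Fosl1, Fosl2, Jund and Egr1 took both signs. Of the members, edgeR called 1, as against 2 under DESeq2, without the filter, with the replicate block and without any 1 library (2 in each of 4 fits), and 0 with the RSEM expected counts, under limma with either pseudocount, and with at least 10 counts in every library, where Fosb was not fitted. Members below 0 numbered 6, and between 4 and 7 with 1 library left out.

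Over all genes, 103 higher and 65 lower calls became 190 and 168 under DESeq2, 482 and 325 without the filter, 761 and 395 with the replicate block, 27 and 17 with expected counts, 0 and 0 under limma on log2(TPM + 1), with 2931 genes at an unadjusted p-value under 0.05, and 0 and 2 on log2(TPM + 0.1), with 2985. Library totals alone gave 40 lower calls. With 1 library left out there were 45 to 502 higher calls and 39 to 367 lower ones, fewest without control replicate 1 and most without lactate replicate 2. The replicate block rests on numbers shared by 2 pairs of libraries. Deviations of libraries with the same number correlated at 0.56, but the labels do not say what a number marks, so the block was not taken as the design. With 1 library left out, the lone library of a group was assumed to vary like the other group.

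Among the lists, the other immediate early genes called were 2 without the filter and with the replicate block (Npas4 beside Atf3) and 0 with expected counts and limma. The partners of Fos and Jun had 0 called with expected counts and limma, and 1 to 2 with 1 library left out. The ERK list had 3 called (Dusp6, Spry2 and Spry4) under DESeq2, without the filter and with the replicate block, 1 with expected counts, 0 under limma and 0 to 4 with 1 library left out. Heat shock genes had 1 called with library totals alone and with expected counts, 0 under limma and 1 to 2 with 1 library left out. The MAP kinase list had 0 to 3 with 1 library left out. The median of the partners, −0.29, was 0.21 under DESeq2 and 0.19 without the filter, where more genes of few reads were fitted. Fhl2 changed sign to −0.10 without control replicate 1 and to −0.30 without lactate replicate 2, and reached 0.98 without control replicate 2. The ratio of Ier2 between control replicates was 0.905 in expected counts. The cause of these differences was not tested. Depth limits Fosb with lactate (3 reads per library) and Egr1 (9 to 31 reads), for which ratios are known only within wide intervals.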
